A study of Homo sapiens with 36 samples.

Results

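The comparison described here set 3 arrays of MEC-1 cells labelled CYTOR gapmer 1 against 3 labelled CYTOR gapmer 2, 6 of the 36 arrays in the series, taken by their sample titles alone. MEC-1 cells are an established line of leukaemic B cells, grown from a patient with chronic lymphocytic leukaemia (CLL). Gapmers are short antisense oligonucleotides with locked nucleic acid ends that direct RNase H to cut the RNA they pair with, and both were designed against CYTOR (LINC00152), a long non-coding RNA. All cells, controls included, were left for 4 days with 1 µM of each gapmer in the medium and took it up unaided, which is called gymnosis. The groups in the main fit are gapmer 1, gapmer 2 and both gapmers together (gapmer 1+2), each with 3 arrays. Scrambled gapmer arrays of the CYTOR experiment entered only the alternative fits with 12 or 36 arrays. Their levels are also given where the target is described. Arrays of the other experiments entered the fit with 36 arrays, and their own gapmers are compared separately below. The gapmer 1+2 cells may have held more oligonucleotide in total, since the dose is given per gapmer. All groups are 1 cell line, and the labels do not say whether arrays of a group came from separate cultures, so every p-value measures the spread between these arrays only.

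A gapmer can change genes through the loss of its target or through its own sequence, and 2 gapmers against the same RNA share the target but not the sequence. The pathways set side by side are known for distinct triggers. Interferon-stimulated genes are switched on through transcription factors of the IRF and STAT families, and they respond to foreign nucleic acid. The amino acid stress response runs from sensing kinases to the transcription factor ATF4, which raises transporters, synthetic enzymes and tRNA synthetases. B-cell receptor signalling passes from CD79A and CD79B through LYN, SYK and BTK to PLCG2 and PI3-kinase, and CLL cells are known to depend on it. CYTOR has been studied mostly as a growth-linked RNA, hence the cell cycle lists.

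Promoter sequences of 7 list members show the elements by which these programmes are usually recognised. They are from RefSeq (GRCh38.p14), 5′ to 3′ on the gene's strand, each upstream of the start, and the capitals mark the first match on either strand, so that a further match can stand in lower case. For interferon members the match is GAAA, any 2 bases and GAAA, the interferon-stimulated response element (ISRE). They are shown because the same element stands before genes that differed to unlike extents between the gapmers: ISG15 (chr1:1013364-1013413, plus strand), whose arrays did not overlap, and IFIT1 (chr10:89392487-89392536, plus strand) and IFIT3 (chr10:89327821-89327870, plus strand), whose arrays did.
ISG15: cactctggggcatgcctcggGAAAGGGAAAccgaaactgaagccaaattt
IFIT1: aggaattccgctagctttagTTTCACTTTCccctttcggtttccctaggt
IFIT3: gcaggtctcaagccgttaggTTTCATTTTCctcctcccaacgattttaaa
For amino acid stress the match is TGATGNAA, the C/EBP-ATF element, in CHAC1 (chr15:40953242-40953289, plus strand) and ASNS (chr7:97872449-97872496, minus strand).
CHAC1: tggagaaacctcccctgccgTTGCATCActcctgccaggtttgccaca
ASNS: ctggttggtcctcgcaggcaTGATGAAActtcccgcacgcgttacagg
For the cell cycle the match is TTTCCCGC, an E2F element, in MCM7 (chr7:100101557-100101604, minus strand), which was higher with gapmer 1, and in PCNA (chr20:5126654-5126701, minus strand), which was not.
MCM7: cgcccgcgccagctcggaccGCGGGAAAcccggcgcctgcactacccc
PCNA: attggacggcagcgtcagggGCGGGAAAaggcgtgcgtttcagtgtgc

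Values are log2 signals of array units as deposited, on which a difference of 1 is 2-fold. Differences are gapmer 1 minus gapmer 2, so a positive one means higher with gapmer 1. Of 135750 units, 67879 were bright enough to test, and 21372 genes could be named, each through the brightest unit that carries its symbol alone. Array medians ran from 3.82 to 3.90, and 58 named genes reached the ceiling of 19.93 on at least 1 of the 6 arrays. Arrays of a group differed by a mean absolute log2 distance of 0.37 to 0.44 within gapmer 1 and 0.43 to 0.52 within gapmer 2. Pairs of a gapmer 1 and a gapmer 2 array lay 0.40 to 0.50 apart, inside the span of the distances within the groups. Defining B-cell markers were bright, with group means from 9.87 to 14.48 for 6 markers, among them CD79A, PAX5 and CD37. Their summed level was 72.99 to 75.52 on gapmer 1 arrays and 70.24 to 71.66 on gapmer 2 arrays. Of the CLL-linked markers, CD5 read only 4.57 with gapmer 1 and 4.77 with gapmer 2, and FCER2 (CD23) 11.70 and 10.67. The T and NK, myeloid, and erythroid and platelet markers had means of at most 5.85, with overlapping sums in both groups for myeloid cells (28.12 to 29.56 and 28.53 to 29.58), for T and NK cells (37.78 to 38.86 and 37.46 to 38.01) and for erythroid cells and platelets (18.56 to 19.64 and 18.73 to 19.11). Stromal and epithelial markers, with means of up to 7.15, also overlapped (28.56 to 29.98 and 28.36 to 28.63).

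The target was not separated between the gapmers. CYTOR read 7.45, 6.79 and 6.55 on the arrays labelled gapmer 1 and 6.75, 6.28 and 6.64 on those labelled gapmer 2. The groups overlapped, and the difference of 0.37 ± 0.26 (SE; 95% interval -0.21 to 0.96) had an exact two-sided permutation p of 0.4, where 3 arrays against 3 cannot go below 0.1, and a limma adjusted p of 0.826. It was 0.11 without gapmer 1 replicate 1, the highest array. Gapmer 1+2 arrays read 6.07, 6.49 and 6.24. On all 9 the unit was above the scrambled arrays, which read 5.25, 5.27 and 5.51, so this unit does not bear out the labelled silencing, and gapmer 1 and gapmer 2 below name the labels on the arrays. MIR4435-2HG, whose near-identical sequence may share signal with CYTOR, read 4.44, 4.75 and 4.33 with gapmer 1 and 4.13, 4.41 and 4.66 with gapmer 2. These also overlapped (difference 0.11 ± 0.19, SE; exact permutation p = 0.6), below scrambled levels of 5.22, 5.15 and 5.33. In RNA from bulk cells, fewer cells of a kind and less RNA per cell cannot be told apart.

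**Figure D1:**
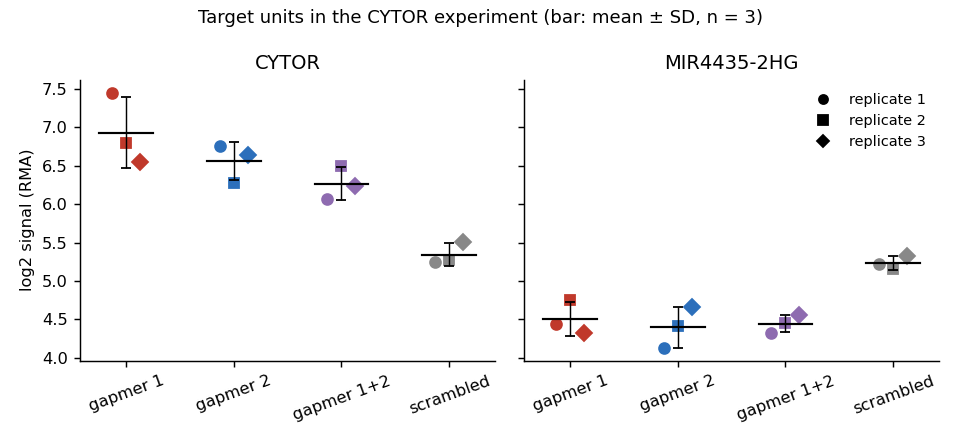
Log2 RMA signal of the units named CYTOR and MIR4435-2HG on each array of the CYTOR experiment, with the mean and SD of 3 arrays per group; shape gives the replicate. Gapmer 1 and gapmer 2 arrays overlap for both, and all 9 gapmer arrays lie above the scrambled arrays for CYTOR and below them for MIR4435-2HG.

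No gene could be called different between the gapmers. With limma and a Benjamini-Hochberg adjusted p under 0.05 over all tested units, 0 were called (0% of 67879; lowest adjusted p = 0.604). At an unadjusted p under 0.05 there were 4722 units (6.96%), 3012 higher and 1710 lower with gapmer 1. For the named genes these counts were 1498 higher (7.01%) and 332 lower (1.55%). Values of 3 arrays against 3 did not overlap for 1736 named genes that were higher (8.12%) and 653 that were lower (3.06%). The leaning towards gapmer 1 was uneven over gene classes and signal. The median difference was 0.14 over protein-coding named genes, against 0.01 over all units and 0.08 over all named genes. Among units with mean signal from 8 to 10 it was 0.15, with 12.1% higher and 1.31% lower at an unadjusted p under 0.05. Among units from 4 to 6 it was -0.01, with 3.09% higher and 2.84% lower, and among the brightest, from 12 up, it was 0.03, with 7.62% higher and 0.745% lower. After quantile normalization of the 9 arrays the split of such units was 2602 higher to 1916 lower, and with each array centred on its median 3635 to 1185. A missed threshold does not show that the gapmers act alike. The 95% interval of the median unit reached 0.60 to either side of its difference, and for 14815 named genes (69.3%) the interval lay inside a 2-fold difference either way. Higher by at least 2-fold with gapmer 1 were 249 named genes, and lower by as much were 29.

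The interferon list had the highest median difference of the 17 lists described, with levels higher on the gapmer 1 arrays. Of its 46 genes, 43 were tested and 0 were called by limma, with 14 higher and 0 lower at an unadjusted p under 0.05 (32.6%, beside 7.01% and 1.55% of all named genes). The 3 gapmer 1 arrays lay above all 3 gapmer 2 arrays for 12 (27.9%, beside 8.12%), and for 0 they lay below. The median difference was 0.50, which is 0.42 above that of all named genes and 0.36 above that of protein-coding genes. The list's median signal was 8.77, in the range where the background is itself 12.1%. ISG15, a ubiquitin-like protein attached to other proteins, read 14.67, 14 and 14.12 with gapmer 1 and 13.11, 13.05 and 12.78 with gapmer 2. The groups were apart by more than either varied, at 1.28 ± 0.25 (SE; limma adjusted p = 0.643). IRF1, a transcription factor of the response, read 7.0, 6.34 and 5.95 with gapmer 1 and 5.40, 5.17 and 4.82 with gapmer 2, a difference of 1.30 ± 0.27 (SE; adjusted p = 0.643) with no overlap. PARP9, an ADP-ribosyltransferase that pairs with the ubiquitin ligase DTX3L, read 9.68, 9.23 and 9.37 with gapmer 1 and 8.35, 8.11 and 7.62 with gapmer 2. Its groups also did not overlap (1.40 ± 0.30, SE; adjusted p = 0.661).

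Other interferon members below that unadjusted p were UBE2L6, the conjugating enzyme for ISG15 (1.31), CMPK2, a mitochondrial nucleotide kinase (1.24), BST2, which tethers budding virions (1.08), and OAS1, which makes the activator of RNase L (0.94). With them were the antiviral GTPases MX2 (0.76) and MX1 (0.70), EIF2AK2, the kinase PKR (0.76), IFI6 (0.71), IFIT1, which binds viral RNA (0.51), IFI35 (0.50) and IRF7, which drives interferon genes (0.47). MX1 read 14.52, 14.09 and 14.23 with gapmer 1 and 13.13, 13.95 and 13.65 with gapmer 2. IFIT1 read 5.09, 4.21 and 4.71 with gapmer 1 and 4.04, 4.21 and 4.22 with gapmer 2, where only gapmer 1 replicate 2 overlapped. Well-known members did not all share in this. IFIT3 read 12.09, 10.40 and 10.54 with gapmer 1 and 10.41, 10.92 and 11.01 with gapmer 2. Only the first array stood out, and the difference of 0.23 became -0.31 without it. RSAD2 (viperin) differed by -0.15 (95% interval -0.51 to 0.20) and SAMD9L by 0.47 (-0.30 to 1.25). TRIM22 (-0.46) and SP100 (-0.36) lay on the other side, with overlapping arrays. OASL was below the signal filter, at 3.71 with gapmer 1 and 3.76 with gapmer 2.

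An ISRE lay within the promoter windows (250 bases before to 50 after the start, both strands) of 23 of 36 interferon members with a window (63.9%), and of 3.65% of all 27305. Each motif was searched on its own, and a promoter counted once however many matches it held. The median difference was 0.50 for members with the ISRE and 0.50 for those without, with 6 of 23 (26.1%) and 6 of 13 (46.2%) at an unadjusted p under 0.05. Of the promoters printed above, ISG15 and IFIT3 each hold the ISRE, and their differences were 1.28 and 0.23.

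**Figure D2:**
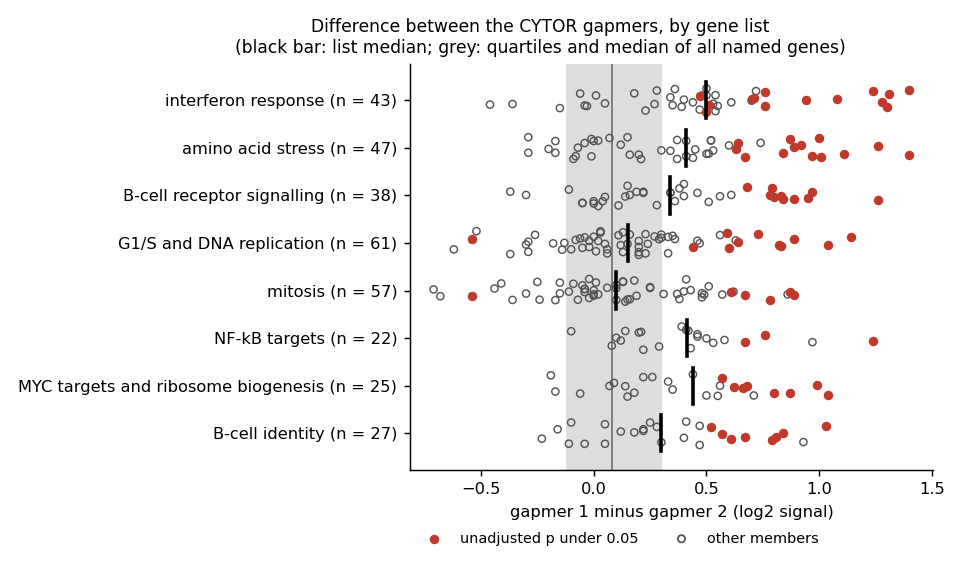
Difference in log2 signal, gapmer 1 minus gapmer 2, for each tested member of 8 gene lists; each point is a gene, filled where the unadjusted limma p is under 0.05, and 0 genes are called after adjustment. List medians (black) lie at 0.50 for interferon, 0.44 for MYC targets and ribosome biogenesis, 0.42 for NF-kB targets and 0.41 for amino acid stress. Those of B-cell receptor signalling and B-cell identity lie at 0.34 and 0.30. The median of all named genes (grey line) is 0.08, and both cell cycle lists lie nearer that line.

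One array carried much of the interferon difference. The list's position on each array was taken as the median deviation of its members from their mean over the 6 arrays, less the same for all named genes. It was 0.51, 0.12 and 0.03 on gapmer 1 replicates 1, 2 and 3, and -0.33, -0.18 and -0.10 on those of gapmer 2. The groups did not overlap, but replicate 1 of gapmer 1 stood well above the other 2 arrays of its group. Without it, 4 members were below the unadjusted threshold in place of 14, the median relative to all named genes was 0.28, and the background share of named genes was 3.88%. Without gapmer 2 replicate 1 the count was 7. ISG15 differed by 1.08 and IRF1 by 1.01 without gapmer 1 replicate 1. On gapmer 1+2 arrays the list scored -0.15, -0.23 and -0.20, on the side of gapmer 2 although gapmer 1 was present. There ISG15 read 13.91, 13.30 and 13.27 and IRF1 5.48, 5.45 and 5.38. The gapmer 1+2 mean was nearer to gapmer 1 for 14 of 43 interferon members (32.6%), beside 50.9% of all named genes.

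**Figure D3:**
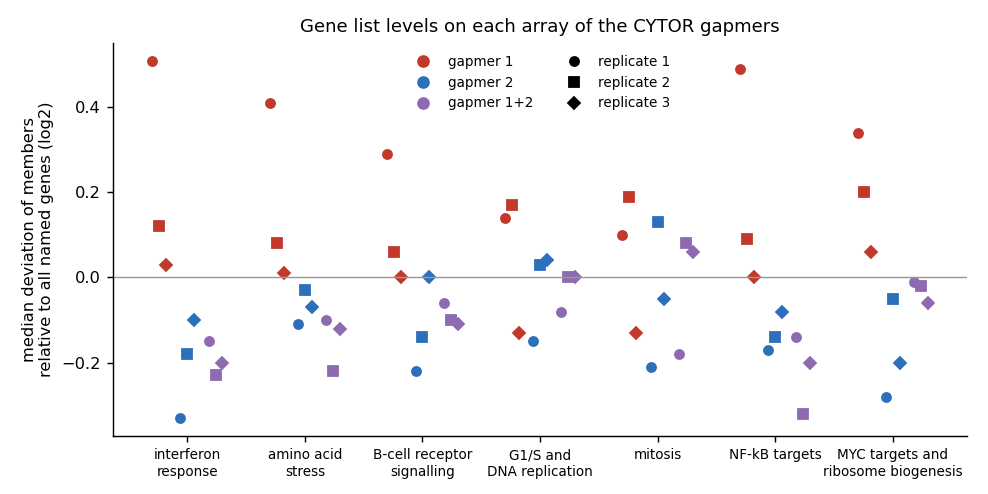
Median deviation of list members on each array (log2, relative to all named genes) for gapmer 1, gapmer 2 and gapmer 1+2; shape gives the replicate. Gapmer 1 replicate 1 is the highest point of the interferon list at 0.51, of amino acid stress at 0.41 and of B-cell receptor signalling at 0.29, while the cell cycle lists overlap between gapmers.

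Amino acid stress genes leaned towards gapmer 1 too. All 47 members with a unit were tested, of 50 listed, and limma called 0. At an unadjusted p under 0.05, 13 were higher and 0 lower (27.7%, beside 7.01% of all named genes), and for 10 the arrays did not overlap (21.3%, beside 8.12%). The list's median signal of 8.76 lay in the range from 8 to 10, where the background at that p is itself 12.1%. The median difference was 0.41, or 0.33 relative to all named genes and 0.27 relative to protein-coding genes. CHAC1, which degrades glutathione, read 9.95, 9.20 and 8.79 with gapmer 1 and 8.27, 8.18 and 7.29 with gapmer 2. The groups did not overlap (1.40 ± 0.34, SE; limma adjusted p = 0.661). DDIT4, an inhibitor of mTORC1, read 9.09, 9.16 and 8.46 with gapmer 1 and 7.97, 8.14 and 6.82 with gapmer 2, a difference of 1.26 ± 0.36 (SE) without overlap that was 0.85 without gapmer 2 replicate 3, the lowest array. ASNS, which makes asparagine, read 12.19, 12.28 and 11.86 with gapmer 1 and 11.22, 11.44 and 10.99 with gapmer 2. It had the list's lowest p, with every gapmer 1 array above every gapmer 2 array (0.89 ± 0.20, SE; adjusted p = 0.661).

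The other members at that level were transporters, synthetic enzymes, tRNA synthetases and the secreted glycoprotein STC2 (0.64). Among transporters, SLC7A11, which imports cystine, was at 0.84, SLC7A5, which imports large neutral amino acids, at 0.67 and the glutamine carrier SLC1A5 at 0.63. SLC7A5 read 15.90, 15.21 and 15.19 with gapmer 1 and 14.66, 14.95 and 14.68 with gapmer 2, and its difference was 0.44 without gapmer 1 replicate 1. Of the synthetic enzymes, PYCR1 of proline synthesis was at 1.11 and PHGDH of serine synthesis at 0.97. The synthetases were WARS1 (1.01), SARS1 (1.00), AARS1 (0.92) and NARS1 (0.87). Transcriptional regulators of the pathway were not at that level. ATF4 read 15.65, 15.49 and 15.49 with gapmer 1 and 15.49, 15.67 and 15.49 with gapmer 2, and the interval of its difference (-0.33 to 0.32) stayed well inside 2-fold. DDIT3 (CHOP) differed by -0.17 (-0.67 to 0.33) and TRIB3, an ATF4 target that restrains it, by -0.04 (-0.70 to 0.62). ATF3, another transcription factor of the list, was higher in value at 0.60 (-0.04 to 1.23), with overlapping arrays.

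The C/EBP-ATF element was found in 10 of 38 amino acid stress members with a promoter window (26.3%) and in 3.67% of all windows. The median difference was 0.56 with it and 0.41 without. CHAC1 and ASNS hold it, as printed above. Scores per array were 0.41, 0.08 and 0.01 with gapmer 1 and -0.11, -0.03 and -0.07 with gapmer 2, so that again the groups were apart but 1 array carried most of the distance. Without gapmer 1 replicate 1 the relative median was 0.16 and the members below the unadjusted threshold were 7. On gapmer 1+2 arrays the scores were -0.10, -0.22 and -0.12. CHAC1 read 8.61, 8.42 and 8.37 there, and the combination was nearer to gapmer 1 for 20 of 47 members (42.6%).

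B-cell receptor signalling genes also leaned towards gapmer 1. Of 46 listed genes 38 were tested and 0 called by limma, with 10 higher and 0 lower at an unadjusted p under 0.05 (26.3%, beside 7.01%). The list's median signal was 9.06, also in the range where that background is 12.1%. For 12 the arrays did not overlap (31.6%, beside 8.12%), and the median difference was 0.34, or 0.26 relative to all named genes and 0.20 relative to protein-coding genes. At the receptor, CD79A read 13.79, 12.74 and 13.05 with gapmer 1 and 11.95, 12.28 and 12.98 with gapmer 2. The groups overlapped (0.79 ± 0.34, SE; adjusted p = 0.705). Its partner CD79B differed by 0.28 (95% interval -0.29 to 0.85). The kinases just below the receptor had intervals that included 0, with LYN at 0.34, SYK at 0.19 and BTK at 0.38, and so did the adaptor BLNK at 0.56 (-0.37 to 1.49). For LYN and BTK every gapmer 1 array was nevertheless above every gapmer 2 array. A second BLNK unit, which was dimmer, was at -0.28.

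PIK3R1, the regulatory subunit of PI3-kinase, read 9.10, 8.89 and 8.45 with gapmer 1 and 7.68, 7.95 and 7.89 with gapmer 2, with no overlap (0.97 ± 0.25, SE; adjusted p = 0.661). DAPP1, an adaptor recruited by the PI3-kinase product, read 6.87, 6.74 and 6.40 with gapmer 1 and 5.59, 5.54 and 6.02 with gapmer 2. Its difference was 0.95 ± 0.21 (SE; adjusted p = 0.661). PLCG2, the phospholipase that BTK activates, read 9.11, 8.76 and 9.21 with gapmer 1 and 7.74, 8.03 and 8.65 with gapmer 2 (0.89 ± 0.30, SE), every gapmer 1 array being the higher. The adaptor GRB2 was at 0.84 and the kinase AKT1 at 1.26. Brakes of the pathway lay in the same direction, with the phosphatase PTPN6 (SHP-1) at 0.83, the coreceptor CD72 at 0.78 and the ubiquitin ligase CBLB at 0.68, as did FCRLA (0.80). VAV1 (-0.37) and SOS1 (-0.30), both exchange factors, lay on the other side with overlapping arrays, as did the adaptor BCL10 (-0.11). Scores per array were 0.29, 0.06 and 0.00 with gapmer 1 and -0.22, -0.14 and 0.00 with gapmer 2, so replicates 3 of both groups had the same score. Without gapmer 1 replicate 1 the relative median was 0.16 with 5 members below the unadjusted threshold.

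**Figure D4:**
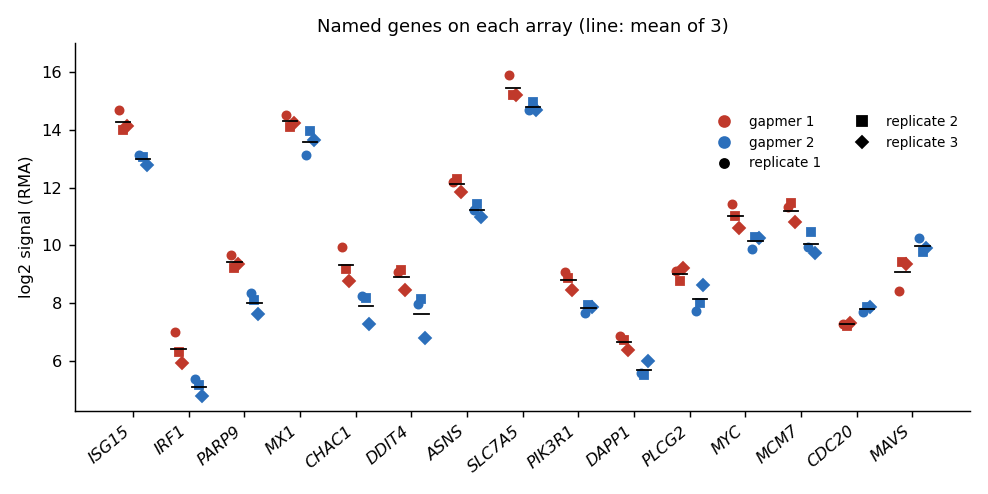
Log2 RMA signal of 15 named genes on each array of gapmer 1 (left of each pair) and gapmer 2, with the mean of 3; shape gives the replicate. For ISG15, IRF1 and ASNS every gapmer 1 array lies above every gapmer 2 array, and for CDC20 and MAVS every one lies below; levels of different genes are not comparable.

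Both cell cycle lists had medians near that of all named genes, while the share of G1/S members at an unadjusted p under 0.05 was above the background share. For G1/S and DNA replication, 61 of 63 genes were tested and 0 were called by limma. At an unadjusted p under 0.05, 10 were higher and 1 lower (16.4% higher, beside 7.01% of named and 9.29% of protein-coding genes). The share with separated arrays was nearer the background, at 7 higher (11.5%, beside 8.12% of named and 10.3% of protein-coding genes). For 2 members every gapmer 1 array was lower, beside 3.06% of named genes. The median difference was 0.15, or 0.07 relative to all named genes and 0.01 relative to protein-coding genes. For mitosis, with all 57 genes tested, 5 were higher and 1 lower (8.77% higher) with 0 called, and the relative median was 0.02. The 10 G1/S members were 5 without gapmer 1 replicate 1, gapmer 1 replicate 2 or gapmer 2 replicate 1, and the 5 mitosis members were 8 without gapmer 1 replicate 3 or gapmer 2 replicate 2. The background share of named genes was 3.88%, 5.32% and 5.39% in the first 3 of these settings and 9.70% and 7.81% in the other 2. Neither list separated the arrays. G1/S scores were 0.14, 0.17 and -0.13 with gapmer 1 and -0.15, 0.03 and 0.04 with gapmer 2. Mitosis scores were 0.10, 0.19 and -0.13 with gapmer 1 and -0.21, 0.13 and -0.05 with gapmer 2. The sign of the mitosis median was negative after quantile normalization (-0.08), with the filter at the 75th percentile (-0.04), and without gapmer 1 replicate 1 (-0.05), gapmer 1 replicate 2 (-0.04) or gapmer 2 replicate 1 (-0.10).

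Single cell cycle genes lay on both sides. MCM7, a subunit of the replicative helicase, read 11.32, 11.46 and 10.80 with gapmer 1 and 9.95, 10.47 and 9.74 with gapmer 2, with no overlap (1.14 ± 0.24, SE; limma adjusted p = 0.643). RPA2, which binds single-stranded DNA, was at 0.83, the G1 kinase CDK4 at 1.04 and cyclin CCND3 at 0.82, although a dimmer CCND3 unit was at -0.61. CDK2 differed by 0.64 (95% interval 0.01 to 1.27), CCND2 by 0.47 (-0.21 to 1.14), CCNE1 by 0.00 (-0.66 to 0.67), E2F1 by 0.13 (-0.36 to 0.63) and MCM10 by 0.16 (-0.31 to 0.63). PCNA, the replication clamp, read 15.22, 15.26 and 15.25 with gapmer 1 and 15.09, 15.29 and 15.88 with gapmer 2, which overlapped (-0.18, interval -0.67 to 0.31). TK1, the salvage thymidine kinase, was lower in value with gapmer 1 (-0.54 ± 0.19, SE; limma adjusted p = 0.678), at 4.72, 5.21 and 4.90 against 5.24, 5.68 and 5.52 with gapmer 2. The E2F element was found in 10 of 52 members with a window (19.2%) and in 1.66% of all windows, with a median difference of 0.08 with it and 0.13 without.

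In mitosis, CDC20, an activator of the anaphase-promoting complex, had the tightest groups, at 7.29, 7.22 and 7.32 with gapmer 1 and 7.69, 7.88 and 7.88 with gapmer 2. All gapmer 1 arrays were lower (-0.54 ± 0.14, SE; adjusted p = 0.661). The phosphatase CDC25C (0.87), which starts mitosis, the kinesin KIF18A (0.67), the checkpoint kinase BUB1B (0.61) and cyclin CCNB1 (0.78) were on the other side. The proliferation marker MKI67 read 13.31, 13.27 and 12.82 with gapmer 1 and 12.77, 13.61 and 13.92 with gapmer 2, with overlap (-0.30, interval -0.97 to 0.37). CDK1 differed by 0.13 (-0.86 to 1.11), AURKA by 0.62 (-0.32 to 1.57), PLK1 by 0.43 (-0.18 to 1.03) and the cytokinesis kinesin KIF23 by -0.07 (-0.53 to 0.40). For CDK1, AURKA and PLK1 the interval did not exclude a 2-fold difference.

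**Figure D5:**
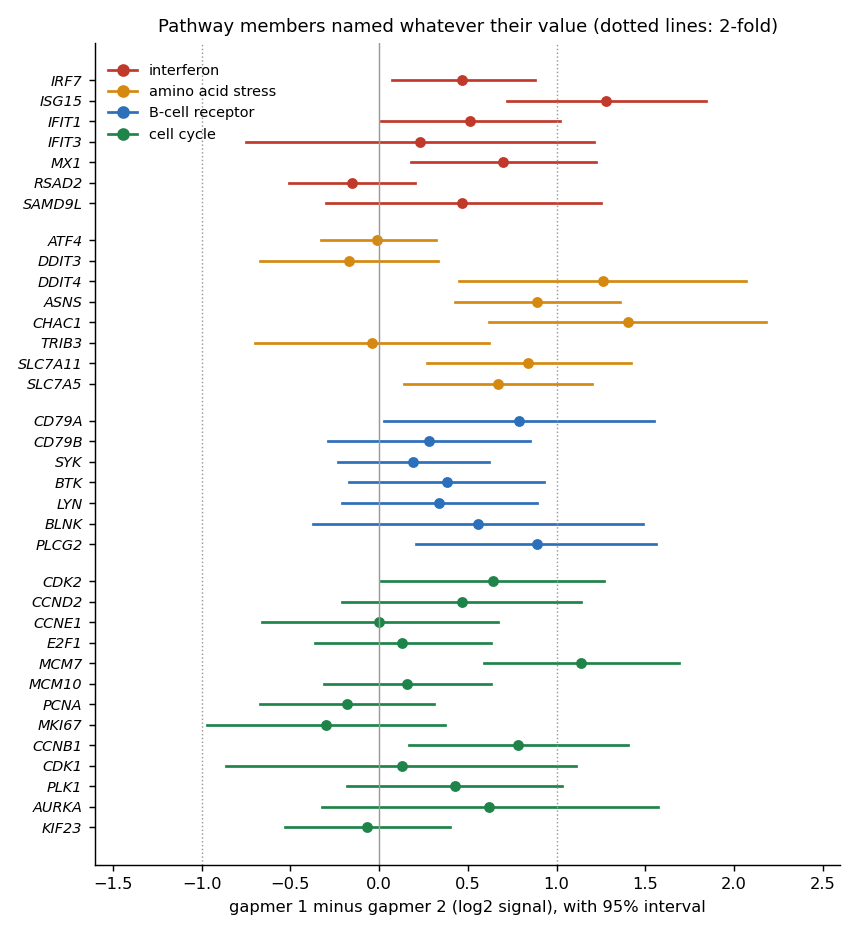
Difference in log2 signal, gapmer 1 minus gapmer 2, with its 95% limma interval, for pathway members named whatever their value; dotted lines mark 2-fold. ISG15, CHAC1 and MCM7 lie above 1, while ATF4 at -0.01, RSAD2 at -0.15 and KIF23 at -0.07 have intervals inside 2-fold.

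Lists next to these pathways leaned the same way to differing extents, with 0 called by limma in any. Over protein-coding named genes the share higher at an unadjusted p under 0.05 was 9.29%, beside 7.01% over all named genes. MYC targets and ribosome biogenesis had 8 of 25 members higher and 0 lower at an unadjusted p under 0.05 (32.0%, beside 7.01%), and a relative median of 0.36. The list's median signal was 8.40, in the range from 8 to 10 where that background is 12.1% of units. MYC itself read 11.44, 11.03 and 10.59 with gapmer 1 and 9.89, 10.29 and 10.26 with gapmer 2, apart by 0.87 ± 0.23 (SE; adjusted p = 0.661) without overlap. POLR1C, a subunit shared by RNA polymerases I and III, was at 1.04, and NPM1, a nucleolar chaperone, at 0.99. A dimmer NPM1 unit was at 0.11. FBL, a nucleolar RNA methyltransferase, was at -0.06 at its brightest unit, and its 13 units ran from -0.06 to 0.76. For NF-kB targets the relative median was 0.34 with 3 of 22 members higher (13.6%). They were CD83, an activation marker (1.24 ± 0.25, SE; adjusted p = 0.643), the feedback inhibitor TNFAIP3 (0.76) and the receptor CD40 (0.67). B-cell identity had 8 of 27 higher (29.6%) and a relative median of 0.22, with FCER2 at 1.03 and the tetraspanin CD37 at 0.81. Its median signal of 8.39 also lay in the range where the background is 12.1%. The markers of T and NK, myeloid, erythroid and platelet, and stromal and epithelial cells had 0 members at that threshold and relative medians of -0.08, -0.12, -0.12 and -0.01.

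Separated arrays and an unadjusted limma p under 0.01 were met by 375 named genes that were higher and 50 that were lower, of which the 10 with the widest differences in each direction are described. GCNT2, an enzyme that branches glycan chains, had the lowest p of these, at 6.94, 6.81 and 6.78 with gapmer 1 and 5.26, 5.15 and 5.45 with gapmer 2. Both groups were tight and more than 2-fold apart (1.56 ± 0.20, SE; 95% interval 1.10 to 2.01; adjusted p = 0.604). CD274 (PD-L1), a ligand that restrains T cells and responds to interferon, read 7.77, 7.34 and 7.27 with gapmer 1 and 6.17, 6.23 and 5.44 with gapmer 2. The groups were apart by 1.51 ± 0.27 (SE; adjusted p = 0.643). The interleukin 3 receptor chain IL3RA was at 1.53, the chitinase-like CHI3L2 at 1.80, the quinone reductase CRYZ at 1.69 and GET1, which inserts tail-anchored proteins into membranes, at 1.56. A dimmer GET1 unit went the other way, with every gapmer 1 array below every gapmer 2 array (-0.31). For RNU5A-1, CHI3L2, CRYZ and IL3RA gapmer 2 replicate 3 was the lowest of its group by over 1, for CHI3L2 at 11.76 against 13.57 and 13.08. The remaining 4 were non-coding, namely RNU5A-1 (1.95), a gene for the U5 spliceosomal RNA, LINC02210 (1.78), the Cajal body RNA SCARNA7 (1.54) and the small nucleolar RNA SNORD11B (1.53).

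On the lower side, 3 of the 10 were pseudogenes, whose signal may come from their parent genes: SETP7 (-1.41), ACTBP4 (-1.21) and PABPC1P9 (-1.10). HSD17B11, a steroid dehydrogenase of lipid droplets, was at -1.27, ERP27, a protein of the endoplasmic reticulum, at -1.28, the forkhead factor FOXJ2 at -1.23, FAM32C at -1.21 and the homeobox gene LEUTX at -1.10. ACTBP4, PABPC1P9, FAM32C and LEUTX were dim, with gapmer 1 means of 3.85, 4.17, 4.32 and 3.64, beside array medians of 3.82 to 3.90. FOXJ2 read 7.19, 7.23 and 7.17 with gapmer 1 and 7.95, 8.37 and 8.97 with gapmer 2, which did not overlap. Also among them were 2 genes of the miR-548 family, a primate microRNA family that arose from transposable elements. MIR548F4 read 4.14, 3.76 and 3.82 with gapmer 1 and 5.01, 5.36 and 5.08 with gapmer 2 (-1.24 ± 0.22, SE; adjusted p = 0.643). MIR548BA read 3.28, 3.70 and 3.47 with gapmer 1 and 4.45, 4.69 and 4.90 with gapmer 2 (-1.20 ± 0.23, SE; adjusted p = 0.643). Both sets were separated but dim, and the unit of such a gene does not tell the mature microRNA from its precursor. Over 743 microRNA units the median difference was -0.06, with 1.75% higher and 3.77% lower at an unadjusted p under 0.05. The mature sequences (RefSeq, GRCh38.p14; miR-548ba at chr2:49059603-49059624, plus strand, and miR-548f-3p at chr7:147378041-147378059, minus strand) are shown because their seeds, bases 2 to 8 in capitals, differ.
hsa-miR-548ba: aAAGGUAAcugugauuuuugcu
hsa-miR-548f-3p: aAAAACUGuaauuacuuuu

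The unit with the lowest p of all, singled out after its value was seen, was a dimmer unit of IFNGR2, a chain of the interferon gamma receptor. It read 10.27, 10.31 and 9.59 with gapmer 1 and 8.26, 8.31 and 7.79 with gapmer 2, apart by 1.94 ± 0.24 (SE; limma adjusted p = 0.604). The brighter IFNGR2 unit, at 12.41, 12.49 and 11.97 with gapmer 1 and 12.21, 12.20 and 12.62 with gapmer 2, overlapped and differed by -0.05. Units of 1 gene can thus disagree on these arrays. MAVS, the mitochondrial adaptor of RNA sensors, was lower in value at its brighter unit (8.44, 9.42 and 9.36 with gapmer 1 and 10.27, 9.76 and 9.92 with gapmer 2; -0.91 ± 0.29, SE, and -0.59 without gapmer 1 replicate 1) and at 0.12 at its dimmer one.

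The same contrast in the other experiments of the series, each with its own pair of gapmers, also gave 0 called units by limma. At an unadjusted p under 0.05 there were 2487 units (3.66%) for LINC00158 and 4131 (6.08%) for RP11-161H23.5, beside 6.96% for CYTOR. Relative medians of the interferon, amino acid stress and B-cell receptor lists were 0.21, 0.20 and 0.24 for LINC00158 and 0.12, -0.04 and -0.06 for RP11-161H23.5, beside 0.42, 0.33 and 0.26 for CYTOR. Interferon members higher at that threshold were 1 of 44 for LINC00158, where 1.76% of named genes were higher and 1.13% lower, and 4 of 44 for RP11-161H23.5, where 2.24% were higher and 3.89% lower. For RP11-161H23.5 it was the cell cycle lists that were displaced, at -0.33 for G1/S and -0.26 for mitosis. Whether these lists differ between experiments was not tested.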

How the data were processed

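The authors' deposited values are log2 signals. Per the submitters' processing notes they come from Affymetrix Expression Console and RMA, with versions, joint summarisation and genome build not given in the sources used here. Symbols came from the array's unit table (1 symbol for 36176 units, several for 1119, none for 98455); 35415 single-symbol units matched a RefSeq gene table (GRCh38.p14), and none was renamed. The brighter 50% of units by mean over the 9 arrays were tested, and CYTOR and MIR4435-2HG always.

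Group means of gapmer 1, gapmer 2 and gapmer 1+2 were fitted with limma 3.58.1 (lmFit, eBayes) in R 4.3.3, with 6 residual and 2.77 prior degrees of freedom. Tests were two-sided, with Benjamini-Hochberg adjustment over all tested units. The fit was tested on simulated data.

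Members and lists were chosen with earlier results of these data known. Named genes were the targets, members named whatever their value, up to 3 members per list and direction by lowest p, and 10 genes per direction with separated arrays and an unadjusted p under 0.01. Other list members below 0.05, CDK4, the second units and the IFNGR2 unit were named after their values were seen. Some list members are not reported here. Lists have no test and are given by counts and medians. Same-numbered arrays of both gapmers did not deviate together (r = -0.12, 0.02 and -0.14), so no pairing was used. An array has no read depth, and 3 arrays per group limit the precision.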

Additional observations from a re-analysis of the deposited data

How the results depend on the processing

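Units called numbered 0 under all 18 alternatives fitted: 6, 12 or 36 arrays in the fit, no filter on dim units, one at the 75th percentile, quantile normalization, median centring, eBayes with trend and robust, the replicate number as a block, and each of 9 arrays left out. The lowest adjusted p, a result added after seeing the data, lay between 0.0974 (all 36 arrays) and 0.880 (6 arrays), and with an array left out between 0.0575 (without gapmer 2 replicate 3) and 0.959 (without gapmer 1 replicate 1). With the replicate number as a block, 0 units were called, 4402 had an unadjusted p under 0.05, and interferon members below it were 9 in place of 14. Units with an unadjusted p under 0.05 numbered 8299 without a filter and 2882 with the stricter one, where more or fewer are tested. Units that did not overlap numbered 6732 in the main setting (9.92% of 67879), 7103 after quantile normalization and 7384 with median centring. They numbered 13059 without a filter and 3519 at the 75th percentile, where again more or fewer are tested. With an array left out they numbered 11559 to 15386, where fewer arrays overlap less. With an array left out, relative medians spanned 0.28 to 0.48 for interferon, 0.16 to 0.41 for amino acid stress, 0.16 to 0.33 for B-cell receptor signalling, 0.01 to 0.17 for G1/S and -0.10 to 0.18 for mitosis. Amino acid stress at 0.16 is the value without gapmer 1 replicate 1, and the cause was not tested. After quantile normalization its median was 0.19 and that of B-cell receptor signalling 0.13. Members higher at an unadjusted p under 0.05 spanned 4 to 18, 7 to 17, 5 to 11, 5 to 13 and 4 to 8 for these lists, and the lowest counts came without gapmer 1 replicate 1 in each, for G1/S also without gapmer 1 replicate 2 and gapmer 2 replicate 1. The share over all named genes moved too, from 3.88% without gapmer 1 replicate 1 to 9.70% without gapmer 1 replicate 3, beside 7.01% with all 9 arrays. Interferon members were 9 with only the 6 arrays, amino acid stress members 8 and G1/S members 6 after quantile normalization, and B-cell receptor and G1/S members 6 each with all 36 arrays, and mitosis members 8 after median centring. Of the 147 named genes none passed the adjusted threshold under any alternative. Counted over every gene and alternative together, 47 differences had another sign than in the main fit, and a gene can count more than once.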

Other observations

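The gene groups described here lay mostly on the gapmer 1 side, as did 59.8% of all named genes, with some members on the other. Plasma cell genes included JCHAIN, which joins polymeric antibodies, at 15.17, 14.95 and 14.07 with gapmer 1 and 13.63, 13.20 and 13.11 with gapmer 2 (1.42 ± 0.33, SE; limma adjusted p = 0.661), and the elongation factor ELL2 at 0.89. These were the 2 of 17 tested members at an unadjusted p under 0.05 (11.8%), both with separated arrays. The background was 7.01% over named genes and 12.1% over units with signal from 8 to 10, near the list's share. The list's median signal was 9.35. SEC11C, of the signal peptidase, was at -0.48, the 1 tested member of the list below 0, while 16 were above 0. For proteins that sense nucleic acids or bind gapmers, 24 differences were above 0 and 7 below. The DNA sensor AIM2 (1.08), NPM1 (0.99) and the paraspeckle protein PSPC1 (1.01) were on the gapmer 1 side, with arrays separated for NPM1 and overlapping for AIM2 and PSPC1, and the RNase H2 subunit RNASEH2B (-0.63) and TLR3 (-0.27) had overlapping arrays on the other. Of 31 tested, 6 were higher (19.4%) and 1, MAVS, was lower at that threshold, with a relative median of 0.21. Of named genes 7.01% were higher and 1.55% lower, and of protein-coding ones 9.29% were higher.

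The unfolded protein response had a relative median of 0.04, or -0.02 relative to protein-coding genes. At an unadjusted p under 0.05, 3 of 25 members were higher (12%), among them EDEM1, of glycoprotein disposal (1.11), and PDIA6 (0.69). The background was 7.01% over named genes and 12.1% over units with signal from 8 to 10, near the list's share. The list's median signal was 9.73. The p53 targets had 3 of 21 higher (14.3%, beside 7.01% of named and 9.29% of protein-coding genes). They were FAS at 0.73, GADD45A at 0.63 and BAX at 0.53. Replication-dependent histones differed from the other lists in the combination. Their scores were 0.14, 0.14 and 0.00 with gapmer 1, -0.08, 0.16 and -0.23 with gapmer 2, and 0.16, 0.31 and 0.38 with gapmer 1+2, so all 3 combination arrays were at or above every array of the single gapmers. H2BC8 read 15.46, 16.15 and 14.93 with gapmer 1, 14.07, 15.40 and 13.76 with gapmer 2, and 15.32, 15.46 and 15.74 with gapmer 1+2. No test was run on the combination.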
